A study of Homo sapiens with 12 samples.

Results

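The annexin family was described across 4 groups of cultured cells, from 9 listed genes (ANXA1, ANXA2, ANXA3, ANXA4, ANXA5, ANXA6, ANXA7, ANXA10 and ANXA11) with 14 probes among the 47322 probes of the array. Every probe paired with a listed gene was taken. The list was chosen by the measured siPRKDC response, in which ANXA1 fell most of the family in TC32 and ANXA7 most in HCT116, so the changes of these genes with siPRKDC are given as a description and were not tested. Of the 9 genes, 8 passed the filter on dim probes, a detection p below 0.05 on each of the 3 arrays of some group, and entered a fit of 10386 genes, with 11 of the 14 probes. TC32 is an Ewing sarcoma cell line and was grown in RPMI-1640; HCT116 is a colorectal carcinoma line and was grown in DMEM, both with 10% serum. Each line received either a control siRNA (siNeg) or siPRKDC, which targets PRKDC, at 20 nM for 48 h. PRKDC encodes the catalytic subunit of the DNA-dependent protein kinase. There were 3 samples per group and 12 in all. Whether siPRKDC is a single sequence or a pool is not given in the sources used here, so the effect of less PRKDC and an effect of the reagent on other transcripts cannot be told apart. Nothing says that the 3 samples of a group came from separate cultures, so the spread behind each p-value may be technical.

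Annexins are cytosolic proteins that bind membranes rich in acidic phospholipids when calcium rises. They share a conserved calcium-binding core and differ in the amino-terminal tail, which in several members docks a small EF-hand protein: S100A11 on ANXA1, S100A10 on ANXA2, sorcin (SRI) on ANXA7, and ALG-2 (PDCD6) and S100A6 on ANXA11. The family is known for roles in membrane repair, vesicle traffic, exocytosis and the scaffolding of the cortical cytoskeleton, and ANXA1 also for signalling through formyl peptide receptors.

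RefSeq sequence upstream of the transcription start was found for all 9 genes, in 13 windows of 250 bases on GRCh38.p14. The windows of the member that fell most in TC32 (ANXA1), the member that fell most in HCT116 (ANXA7) and the member that rose most in HCT116 (ANXA10) are printed 5′ to 3′ on the gene's strand, ending at the base before the start. Capitals mark TATAAA and CCAAT and GGGCGG, each searched on either strand, so the last appears as CCGCCC and CCAAT as ATTGG where the match is on the reverse strand.
ANXA1, chr9:73151615-73151864, plus strand: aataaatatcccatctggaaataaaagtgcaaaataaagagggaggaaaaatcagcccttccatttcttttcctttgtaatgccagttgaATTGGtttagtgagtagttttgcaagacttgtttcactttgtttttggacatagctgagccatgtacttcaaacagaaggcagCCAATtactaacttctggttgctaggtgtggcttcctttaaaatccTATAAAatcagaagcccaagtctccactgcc
ANXA7, chr10:73414059-73414308, minus strand: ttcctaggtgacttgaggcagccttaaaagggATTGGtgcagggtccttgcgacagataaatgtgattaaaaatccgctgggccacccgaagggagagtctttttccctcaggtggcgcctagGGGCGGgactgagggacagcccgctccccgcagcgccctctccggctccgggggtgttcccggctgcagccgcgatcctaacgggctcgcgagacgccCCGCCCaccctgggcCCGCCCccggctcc
ANXA10, chr4:168092287-168092536, plus strand: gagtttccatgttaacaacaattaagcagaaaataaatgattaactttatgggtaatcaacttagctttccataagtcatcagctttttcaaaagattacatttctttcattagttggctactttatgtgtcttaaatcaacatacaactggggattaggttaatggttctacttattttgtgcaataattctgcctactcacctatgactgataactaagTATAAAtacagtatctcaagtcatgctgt
The ANXA1 and ANXA10 windows are poor in GC, with 38.4% and 31.2% GC and 0 CpG dinucleotides each. Each holds TATAAA close to the start, beginning 31 bases before it in ANXA1 and 29 bases before it in ANXA10. The ANXA7 window is rich in GC, with 66.0% GC and 20 CpG dinucleotides, and holds 3 GGGCGG matches and 1 CCAAT match but no TATAAA. Over 35116 RefSeq windows of the same length the median was 58.0% GC and 11 CpG dinucleotides. TATAAA stood in 10.7% of those windows, GGGCGG in 42.6% and CCAAT in 32.0%. Among the 13 annexin windows, 4 held TATAAA (1 each of ANXA1, ANXA2, ANXA10 and ANXA11), 7 held GGGCGG and 4 held CCAAT. GGAAGGAA, a pair of GGAA repeats of the kind bound by the Ewing sarcoma fusion factor, stood in 0 of the 13 and in 3.06% of all windows. A match of letters is a description of the window and not a bound site.

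PRKDC, the targeted gene, was lower in every siPRKDC sample than in any siNeg sample of its line. Its normalized log2 intensity was 6.61, 6.61 and 6.90 with siNeg and 5.21, 5.03 and 5.66 with siPRKDC in TC32, and 7.28, 7.42 and 7.05 against 4.48, 4.51 and 4.79 in HCT116. The log2 change was -1.41 ± 0.14 (SE, n = 3 against 3; limma with Benjamini-Hochberg adjustment, adjusted p = 3.80e-08) in TC32 and -2.66 ± 0.14 (adjusted p = 4.87e-11) in HCT116. These values are of its brightest probe. The other kept PRKDC probes changed by -0.86 ± 0.11 and -0.92 ± 0.10 in TC32 and by -0.78 ± 0.11 and -0.73 ± 0.10 in HCT116. With siPRKDC their means were near the detection limit, at 4.34 and 4.26 in TC32 and 4.25 and 4.33 in HCT116. The larger fall in HCT116 was read on the brightest probe alone. The arrays detected 32.5 to 38.4% of probes each, with 15396 to 16216 probes on the TC32 siPRKDC arrays and 16324 to 16603 on the TC32 siNeg arrays. A probe for 28S ribosomal RNA (RNA28SN5) rose with siPRKDC by a log2 change of 3.07 ± 0.17 (adjusted p = 3.15e-12 in limma) in TC32 and of 0.69 ± 0.17 (adjusted p = 0.00524) in HCT116. A second RNA28SN5 probe rose by 1.69 ± 0.15 in TC32 and read 0.24 ± 0.15 in HCT116, which was not called (limma, adjusted p = 0.320 over kept probes). The part of these array differences in the annexin changes was not tested. Under siNeg, 7 of 8 tested Ewing sarcoma markers, among them CD99 and NKX2-2, were called higher in TC32, where 30.1% of all genes were. Of 6 tested colorectal epithelial markers, 5, among them EPCAM and KRT8, were called higher in HCT116, where 36.1% of all genes were. Several of these markers were detected in their own line alone, which fixes the direction of their difference. The other 2 of the 8 listed epithelial markers, VIL1 and CEACAM5, did not pass the filter, and neither did any of the 4 leukocyte markers with a probe.

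ANXA1 and ANXA7 were lower with siPRKDC in both lines, ANXA1 mainly in TC32 and ANXA7 mainly in HCT116. The other 6 members in the fit changed by log2 values from -0.52 to 0.33. Genes with an adjusted p below 0.05 in the limma fit are named as called. No calls are given for the annexins in the siPRKDC comparisons, by which they were chosen. In TC32 the siPRKDC samples lay wholly below the siNeg samples for 3 of the 8 genes (ANXA1, ANXA2 and ANXA7). Groups did not overlap for 48.2% of all genes there. In HCT116 the siPRKDC samples lay wholly below for 3 (ANXA1, ANXA5 and ANXA7) and wholly above for ANXA10 and ANXA11. There the groups did not overlap for 35.2% of all genes. Over all genes, 42.7% were called in TC32 (21.0% lower, 21.8% higher) and 18.8% in HCT116 (9.55% lower, 9.20% higher). The median log2 change of the 8 genes was -0.13 in TC32, beside 0.01 over all genes, and 0.05 in HCT116, beside 0.00 over all genes. The annexin counts are of genes chosen with the same comparisons known. Of the 8, 2 passed the filter only through groups in which they were higher (ANXA3 in HCT116, and ANXA10, near the detection limit, in HCT116 with siPRKDC). Each sample is RNA of a whole culture, so fewer cells with a transcript and less of it per cell cannot be told apart.

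ANXA1 (annexin A1, lipocortin 1) is the glucocorticoid-regulated member that binds S100A11 and is best known for limiting inflammation. Its log2 intensity in TC32 was 11.40, 11.52 and 11.43 with siNeg and 8.71, 8.60 and 8.44 with siPRKDC. In HCT116 it was 10.08, 10.02 and 10.10 with siNeg and 9.43, 9.10 and 9.13 with siPRKDC. The groups did not overlap in either line, nor did those of 48.2% of all genes in TC32 and 35.2% in HCT116. The log2 change was -2.86 ± 0.10 (SE), a 7.28-fold lower intensity, in TC32 and -0.85 ± 0.10, or 1.80-fold lower, in HCT116. Under siNeg TC32 was the brighter line and with siPRKDC HCT116 was, so the 4 groups ran from TC32 with siNeg through HCT116 with siNeg and HCT116 with siPRKDC down to TC32 with siPRKDC, and no neighbours in that order overlapped. By size of fall ANXA1 stood 2nd of the 10386 genes in TC32 and 46th in HCT116. ANXA1 has 1 probe on the array, detected in all 12 samples.

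ANXA7 (annexin A7, synexin) has a long amino-terminal tail that binds sorcin and is known for promoting membrane fusion in secretory cells. In TC32 its log2 intensity was 7.24, 7.25 and 7.06 with siNeg and 6.34, 6.26 and 6.35 with siPRKDC. In HCT116 it was 7.69, 7.47 and 7.65 with siNeg and 6.17, 6.41 and 6.27 with siPRKDC. The siNeg and siPRKDC samples were apart in both lines, and with siPRKDC the samples of the lines overlapped although HCT116 had been higher under siNeg. The log2 change was -0.86 ± 0.10 (1.82-fold lower) in TC32 and -1.32 ± 0.10 (2.50-fold lower) in HCT116. ANXA7 stood 307th of 10386 by size of fall in TC32 and 8th in HCT116. The size rests on the background correction: without it the log2 changes were -0.57 in TC32 and -0.90 in HCT116, and in the authors' deposited log2 values -0.56 and -0.95. A second ANXA7 probe was detected in 0 of the 12 samples and gave no value.

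**Figure D1:**
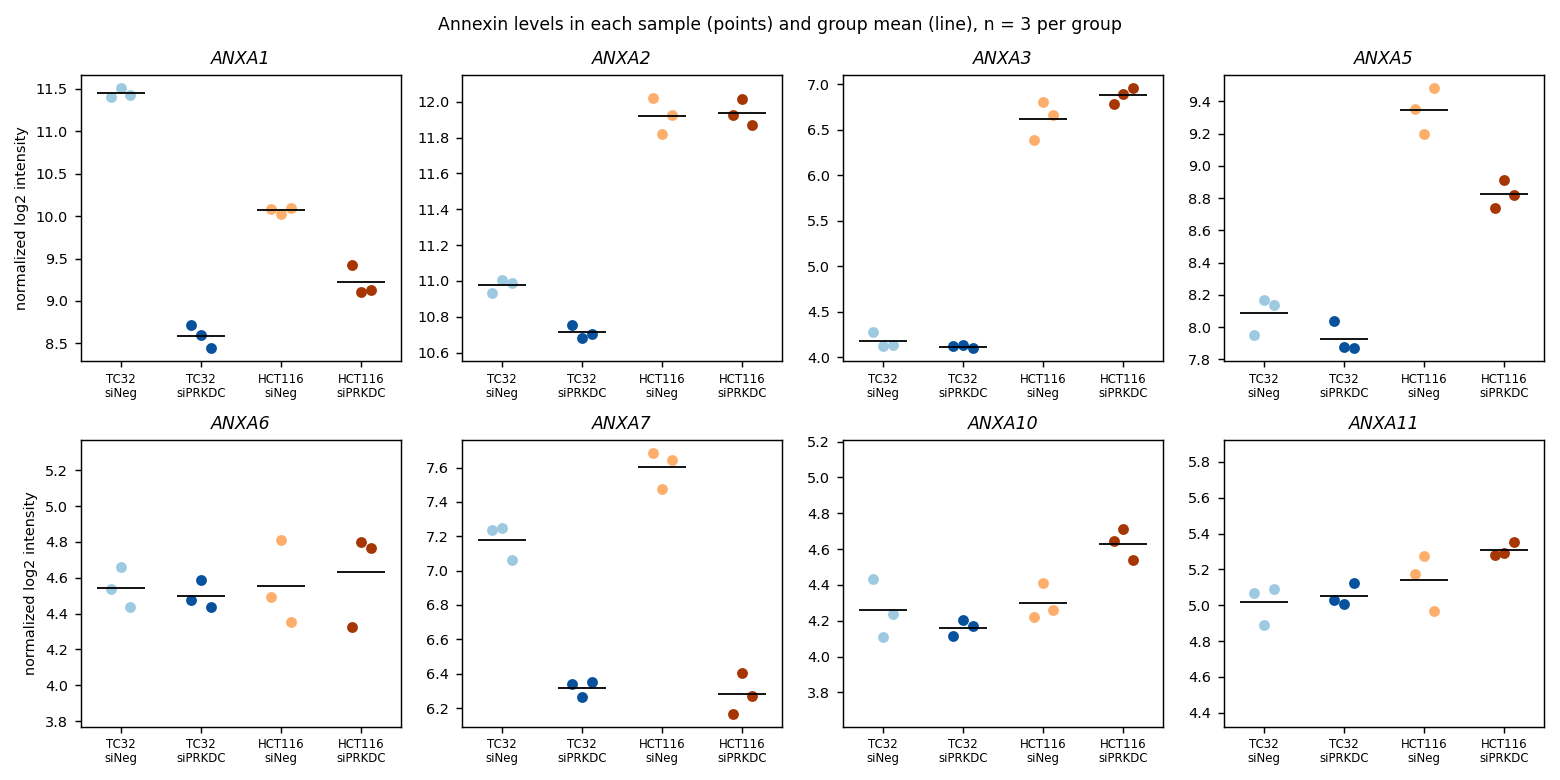
Normalized log2 intensity of the 8 annexin genes that passed the filter, in each of the 4 groups (points, 3 samples per group; line, group mean), each panel with its own axis range. ANXA1 fell from between 11.40 and 11.52 to between 8.44 and 8.71 in TC32 and less in HCT116, ANXA7 ended at a like level in both lines, and ANXA3 was near the detection limit in TC32.

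ANXA2 (annexin A2) pairs with S100A10 in a heterotetramer that links actin and the plasma membrane and binds plasminogen at the cell surface. On its brightest probe its log2 intensity in TC32 was 10.93, 10.99 and about 11 with siNeg and 10.75, 10.68 and 10.70 with siPRKDC. In HCT116 it was 12.02, 11.82 and 11.92 with siNeg and 11.92, 12.02 and 11.87 with siPRKDC. The groups were apart in TC32 by a small margin and overlapped in HCT116, with log2 changes of -0.26 ± 0.09 and 0.01 ± 0.09. The HCT116 values lie near the top of the scale, where the highest value of any probe was 12.46. The other ANXA2 probes gave different sizes. One changed by -0.75 ± 0.11 in TC32 and -0.12 ± 0.11 in HCT116, and the other by -0.09 ± 0.10 in TC32 and -0.40 ± 0.10 in HCT116, so the order of the lines differs between probes. With the mean of the 3 probes as the gene's level, the changes were -0.37 in TC32 and -0.17 in HCT116.

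ANXA2 also has processed pseudogenes close to it in sequence, whose probes may take up ANXA2 transcript, so these readings are uncertain. The brightest ANXA2P1 probe fell by a log2 change of -0.55 ± 0.09 in TC32 (adjusted p = 3.69e-05 in limma) and read 0.09 ± 0.09 higher in HCT116, which was not called (adjusted p = 0.573). A second ANXA2P1 probe changed by -0.14 ± 0.11 in TC32. The ANXA2P2 probe changed by -0.05 ± 0.10 in TC32 and 0.07 ± 0.10 in HCT116. Its group means, 12.11 to 12.18, lay near the highest value of any probe, 12.46. The ANXA2P3 probe changed by 0.11 ± 0.14 and 0.17 ± 0.14. Its group means, 4.40 to 4.88, lay near the detection limit, and each TC32 group detected it on 2 of 3 arrays. At either end of the scale changes can be compressed, so neither probe can show an absence of change.

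**Figure D2:**
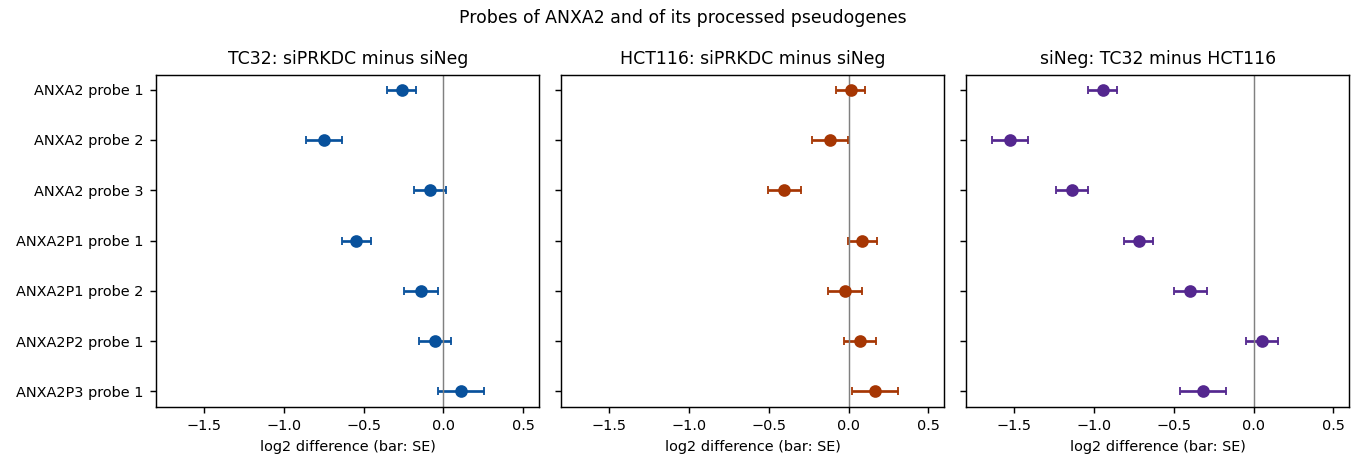
Log2 difference (point) with its SE (bar) for the 3 ANXA2 probes and the 4 probes of its pseudogenes, for siPRKDC minus siNeg in TC32 (left), the same in HCT116 (middle) and TC32 minus HCT116 under siNeg (right). All 3 ANXA2 probes were lower in TC32 than in HCT116 under siNeg, from -1.52 to -0.95, while their changes with siPRKDC differed from probe to probe.

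ANXA5 (annexin A5) binds exposed phosphatidylserine and is the protein used to stain dying cells. In TC32 its log2 intensity was 7.95, 8.17 and 8.14 with siNeg and 8.04, 7.88 and 7.87 with siPRKDC, and the groups overlapped. In HCT116 it was 9.36, 9.19 and 9.49 with siNeg and 8.74, 8.91 and 8.82 with siPRKDC, all lower. The log2 changes were -0.16 ± 0.10 in TC32 and -0.52 ± 0.10, or 1.43-fold lower, in HCT116.

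ANXA10 (annexin A10) has lost most of the calcium-binding sites of the family core and is known from gastric epithelium. In HCT116 its log2 intensity was 4.22, 4.41 and 4.26 with siNeg and 4.64, 4.71 and 4.54 with siPRKDC, without overlap. In TC32 it was 4.43, 4.11 and 4.24 with siNeg and 4.12, 4.20 and 4.17 with siPRKDC. All of these lie close to the lowest detected signal of the arrays, which ran from 4.35 to 4.44: the probe was detected on all 3 HCT116 siPRKDC arrays, on 1 array of each siNeg group and on 0 of the TC32 siPRKDC arrays. The log2 change in HCT116 was 0.33 ± 0.10, and 0.11 without background correction.

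ANXA3 (annexin A3), an epithelial and neutrophil member, was measured only in HCT116. Its log2 intensity there was 6.39, 6.80 and 6.66 with siNeg and 6.78, 6.89 and 6.96 with siPRKDC, overlapping, a change of 0.26 ± 0.10. In TC32 it was not well above background in any of the 6 samples, at 4.10 to 4.28. ANXA6 (annexin A6), which carries a duplicated core and binds late endosomes and the plasma membrane, was dim in every group, at 4.33 to 4.81, and all neighbouring groups overlapped. Its log2 changes were -0.04 ± 0.13 in TC32 and 0.08 ± 0.13 in HCT116. ANXA11 (annexin A11), a long-tailed member that tethers RNA granules to lysosomes, read 5.07, 4.89 and 5.09 with siNeg and 5.03, 5.01 and 5.12 with siPRKDC in TC32. In HCT116 it read 5.17, 5.27 and 4.97 with siNeg and 5.28, 5.29 and 5.35 with siPRKDC. The ANXA11 groups were just apart there, where groups of 35.2% of all genes did not overlap. Its changes were 0.03 ± 0.10 and 0.17 ± 0.10, and those of its second kept probe 0.08 ± 0.11 and 0.02 ± 0.11. The other ANXA11 probe did not pass the filter. ANXA4 (annexin A4), known from epithelia, was detected on 1 of 12 arrays and has no value in the fit. The remaining annexins on the array, ANXA8, ANXA8L1, ANXA9 and ANXA13, had 10 probes and 0 that passed the filter.

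**Figure D3:**
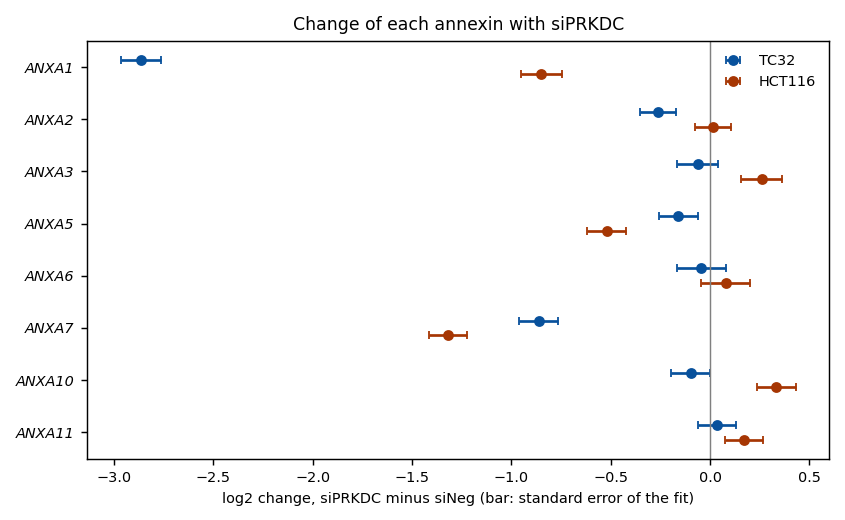
Log2 change with siPRKDC (point, siPRKDC minus siNeg, 3 samples against 3) and its SE from the fit (bar) for the 8 annexin genes in TC32 and HCT116. ANXA1 (-2.86) lies far below the other genes in TC32 and ANXA7 (-1.32) lowest in HCT116, and the changes of the 6 other genes lie between -0.52 and 0.33.

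The change of ANXA1 was larger in TC32 than in HCT116, with a difference between the log2 changes (TC32 minus HCT116) of -2.01 ± 0.14, and that of ANXA7 smaller, with a difference of 0.46 ± 0.14. ANXA10 differed by -0.43 ± 0.14. ANXA10 passed the filter only through HCT116 with siPRKDC, which favours a negative difference. The other 5 members in the fit had differences from -0.32 to 0.36. For the 8 annexins no call is given, where 16.4% of all genes were called higher and 15.5% lower. The annexin differences follow from the values by which the genes were chosen and are given with no test.

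The comparison of TC32 with HCT116 under siNeg was not part of that choice and was tested for the annexins. TC32 held more ANXA1 and less ANXA2, ANXA3, ANXA5 and ANXA7 transcript than HCT116, while ANXA6, ANXA10 and ANXA11 were not called. ANXA3 passed the filter only through HCT116, which fixes the direction of its difference. The number called, 5 of 8 with ANXA3 included, stands beside 66.2% of all genes (30.1% higher in TC32 and 36.1% lower), so the family was not called more often than the array as a whole. The median log2 difference was -0.27 over the 8 genes and -0.06 over all genes. Line and growth medium cannot be told apart in this comparison.

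ANXA1 was 2.60-fold higher in TC32, a log2 difference of 1.38 ± 0.10 (SE, n = 3 against 3; 95% confidence interval 1.17 to 1.59; limma, adjusted p = 5.57e-11). ANXA3 differed by -2.44 ± 0.10 on the log2 scale, given as a description because of the filter. Its probe was not well above background in TC32, so the fold is a bound: ANXA3 was at least 4.67-fold higher in HCT116, taking for each TC32 array the higher of the probe's own value and the lowest signal of any probe detected there. ANXA5 was 2.39-fold lower in TC32, with a log2 difference of -1.26 ± 0.10 (adjusted p = 2.17e-10 in limma). ANXA2 was 1.93-fold lower, with a log2 difference of -0.95 ± 0.09 (adjusted p = 3.87e-09 in limma), and its other probes gave -1.52 ± 0.11 and -1.14 ± 0.10. ANXA7 was 1.34-fold lower, with a log2 difference of -0.42 ± 0.10 (95% confidence interval -0.62 to -0.22; adjusted p = 6.08e-04 in limma). In each of these 5 genes the 3 samples of one line lay wholly above the 3 of the other, as they did for 68.4% of all genes.

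Of the genes not called, ANXA6 differed by -0.01 (95% confidence interval -0.27 to 0.25; limma, adjusted p = 0.956) and ANXA10 by -0.04 (-0.24 to 0.16; adjusted p = 0.743). ANXA11 differed by -0.12 (-0.32 to 0.08; limma, adjusted p = 0.281), and when the arrays were scaled to a common median instead of quantile normalized it was called lower in TC32, at -0.29 (adjusted p = 0.0144). Counted by probe, 7 of the 11 kept annexin probes were called, beside 62.0% of all kept probes.

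**Figure D4:**
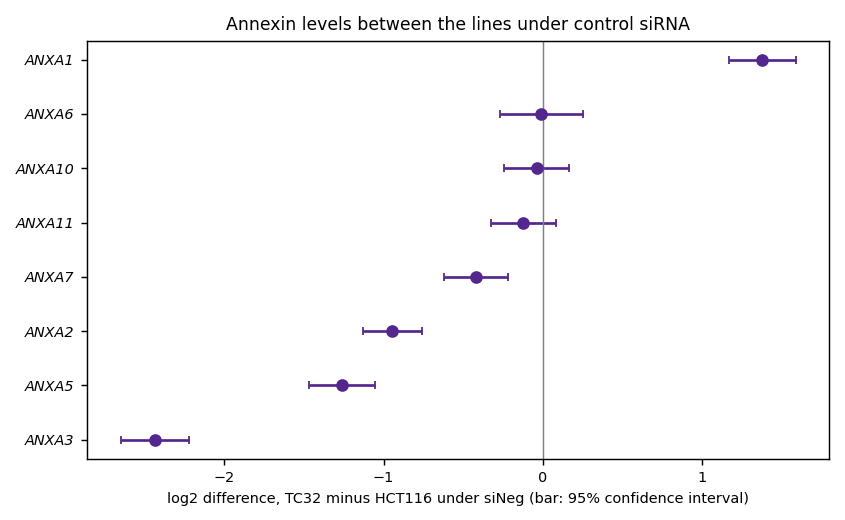
Log2 difference between TC32 and HCT116 under siNeg (point) with its 95% confidence interval (bar) for the 8 annexin genes, ordered by value. ANXA1 alone lies to the right of 0 with its interval, ANXA3, ANXA5, ANXA2 and ANXA7 lie to the left, and the intervals of ANXA6, ANXA10 and ANXA11 include 0.

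A list of 15 S100 and penta-EF-hand genes was followed, of which 10 were in the fit. Like the other lists of partners and markers, it was written with earlier results of these data known, so its counts are a description. Only some of the listed genes encode the EF-hand proteins named above as docking on annexin tails. In TC32, 6 of the 10 fell with siPRKDC and 2 rose, where 21.0% of all genes were called lower and 21.8% higher. The median log2 change was -0.35, beside 0.01 over all genes. Each gene is read on its brightest probe, and S100A4, among the 6, rose on its other kept probe. In HCT116, 0 fell and 1 rose, with a median of 0.05, near the 9.55% and 9.20% of all genes. The difference between the siPRKDC effects was itself called, as more negative in TC32, for S100A6, S100A10, S100A11 and S100A13, where 15.5% of all genes were called in that direction. It was also called for S100A16, which no TC32 array detected, so that difference holds only its HCT116 rise.

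S100A10, the partner of ANXA2, fell in TC32 with a log2 change of -0.87 ± 0.10 (limma, adjusted p = 7.26e-07). Its log2 intensity was 10.23, 9.90 and 10.26 with siNeg and 9.38, 9.29 and 9.13 with siPRKDC, without overlap. In HCT116 it read -0.03 ± 0.10 (adjusted p = 0.887 in limma). S100A11, the partner of ANXA1, fell in TC32 by a log2 change of -0.79 ± 0.11 (adjusted p = 3.52e-06 in limma) and read 0.28 ± 0.11 in HCT116 (adjusted p = 0.0686), a rise called under 3 alternatives (lowest adjusted p = 0.0224, in the authors' deposited log2 values). Its log2 intensity in TC32 was 6.54, 6.60 and 6.43 with siNeg and 5.88, 5.54 and 5.78 with siPRKDC. S100A13, known for the export of growth factors that lack a signal peptide, fell furthest of the list in TC32, by -1.15 ± 0.10 (adjusted p = 1.01e-08 in limma), on 2 of its 3 kept probes. Its log2 intensity there was 6.62, 6.82 and 6.66 with siNeg and 5.60, 5.60 and 5.43 with siPRKDC, and it read 0.02 ± 0.10 in HCT116.

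S100A6, which binds ANXA11, fell in TC32 by a log2 change of -0.46 ± 0.11 (adjusted p = 0.00166 in limma). PEF1, a penta-EF-hand partner of ALG-2, fell by -0.54 ± 0.12 (adjusted p = 9.85e-04 in limma). S100A4, a calcium sensor of motile cells, was lower by -0.24 ± 0.09 (adjusted p = 0.0412 in limma) on its brightest probe. Its other kept probe rose by 0.48 (limma, adjusted p = 0.00144 over kept probes). The mean of its kept probes did not bear out the fall, at 0.12 (adjusted p = 0.275 in limma). The call of a fall was also lost without TC32 siNeg replicate 1 (adjusted p = 0.172 in limma), TC32 siNeg replicate 3 (0.0610), TC32 siPRKDC replicate 2 (0.0885) or TC32 siPRKDC replicate 3 (0.122). PDCD6 rose by 0.35 ± 0.10 (adjusted p = 0.00877 in limma) and GCA (grancalcin) by 0.37 ± 0.11 (adjusted p = 0.00956), both in TC32. The PDCD6 call was lost without TC32 siNeg replicate 1 (adjusted p = 0.0578 in limma) and that of GCA without TC32 siPRKDC replicate 3 (adjusted p = 0.0598). GCA also read only 0.13 without background correction (adjusted p = 0.0904 in limma) and 0.11 in the authors' deposited log2 values (0.165). S100A16, not detected in TC32, rose in HCT116 by 0.46 ± 0.09 (adjusted p = 0.00119 in limma). Sorcin (SRI), the partner of ANXA7, was not called in either line with siPRKDC on its brightest probe, while a second probe rose in TC32 by 0.39 (limma, adjusted p = 0.00634 over kept probes).

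Under siNeg, 8 of the 10 tested EF-hand genes were lower in TC32 than in HCT116 and 1 (PEF1) was higher, where 36.1% and 30.1% of all genes were, with a median log2 difference of -1.23. Among the 8, S100A16 passed the filter only through HCT116. The SRI difference of -0.29 rests on 1 of its 3 probes: the others read 0.08 and 0.15, and the mean of all 3 gave -0.02 (adjusted p = 0.865 in limma). The SRI call was also lost with cyclic loess (adjusted p = 0.0728 in limma), with no filter (0.0980), and without either of 2 samples in each group (highest adjusted p = 0.228, without HCT116 siNeg replicate 3). The PEF1 call was lost with median scaling, at 0.27 (adjusted p = 0.0686 in limma). The PDCD6 call was lost without TC32 siNeg replicate 1 (adjusted p = 0.0999 in limma) or HCT116 siNeg replicate 2 (0.0930). S100A4 differed by -4.77 ± 0.09 (adjusted p = 2.12e-21 in limma) and S100A6 by -4.10 ± 0.11 (adjusted p = 4.80e-19). S100A10 was lower in TC32 like ANXA2, by -1.34 ± 0.10 (adjusted p = 1.45e-10 in limma). S100A11 differed by -0.10 ± 0.11 and was not called (adjusted p = 0.412 in limma), but with median scaling it was called lower in TC32, at -0.37 (adjusted p = 0.00451). S100A16, not well above background in TC32, was at least 7.47-fold higher in HCT116.

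Genes of membrane repair and of the caveolar and cortical scaffold, in which several annexins act, made up a second list of 17 genes, 13 of them in the fit. In TC32, 5 fell with siPRKDC and 1 rose, with a median log2 change of -0.06, where 21.0% of all genes were called lower and 21.8% higher. In HCT116, 1 fell and 2 rose, with a median of 0.09, near the 9.55% and 9.20% of all genes. MYOF (myoferlin, a calcium-binding membrane repair protein) fell in TC32 by -0.62 ± 0.10 (adjusted p = 1.91e-05 in limma) and rose in HCT116 by 0.52 ± 0.10 (adjusted p = 4.78e-04). Its log2 intensity was 7.08, 7.14 and 7.06 with siNeg and 6.37, 6.62 and 6.43 with siPRKDC in TC32. In HCT116 it was 8.46, 8.29 and 8.53 with siNeg and 8.89, 8.96 and about 9 with siPRKDC, so the groups were apart in both lines and in opposite directions. Groups did not overlap for 48.2% of all genes in TC32 and 35.2% in HCT116. Another kept MYOF probe read -0.31 in TC32 and 0.22 in HCT116, where it was not called (limma, adjusted p = 0.252 over kept probes). AHNAK, a giant scaffold that binds the ANXA2 and S100A10 complex, fell in TC32 by -0.73 ± 0.11 (adjusted p = 1.96e-05 in limma) on 2 of its 3 kept probes. CAPN1, the catalytic subunit of a calpain, fell by -0.69 ± 0.14 (adjusted p = 3.65e-04 in limma) and CAVIN1, a coat protein of caveolae, by -0.53 ± 0.10 (adjusted p = 1.17e-04).

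CAV2 (caveolin 2) was lower in TC32 by -0.34 ± 0.10 (adjusted p = 0.0102 in limma), a call lost without TC32 siNeg replicate 1 (adjusted p = 0.0662) or TC32 siPRKDC replicate 2 (adjusted p = 0.0538). The brightest CAV1 probe was not called in TC32, at 0.25 ± 0.11 (adjusted p = 0.0632 in limma), while a second CAV1 probe read 0.86. A CAV1 rise in TC32 was called under 10 of 22 alternatives, among them no background correction, cyclic loess and median scaling, and reached 0.55 with the mean of both probes (adjusted p = 4.49e-05 in limma). EHD1, an ATPase of endocytic recycling, rose in both lines, by 0.68 ± 0.10 (adjusted p = 8.17e-06 in limma) in TC32 and 0.47 ± 0.10 (adjusted p = 0.00169) in HCT116. DSG2, the desmosomal cadherin desmoglein 2, fell in HCT116 by -0.43 ± 0.09 (adjusted p = 0.00177 in limma) on its brightest probe, which was not detected in TC32. A second kept DSG2 probe read -0.14 in HCT116 and was not called (limma, adjusted p = 0.522 over kept probes). The receptors and the enzyme most often named with ANXA1, the formyl peptide receptors FPR1, FPR2 and FPR3 and the cytosolic phospholipase PLA2G4A, did not pass the filter.

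**Figure D5:**
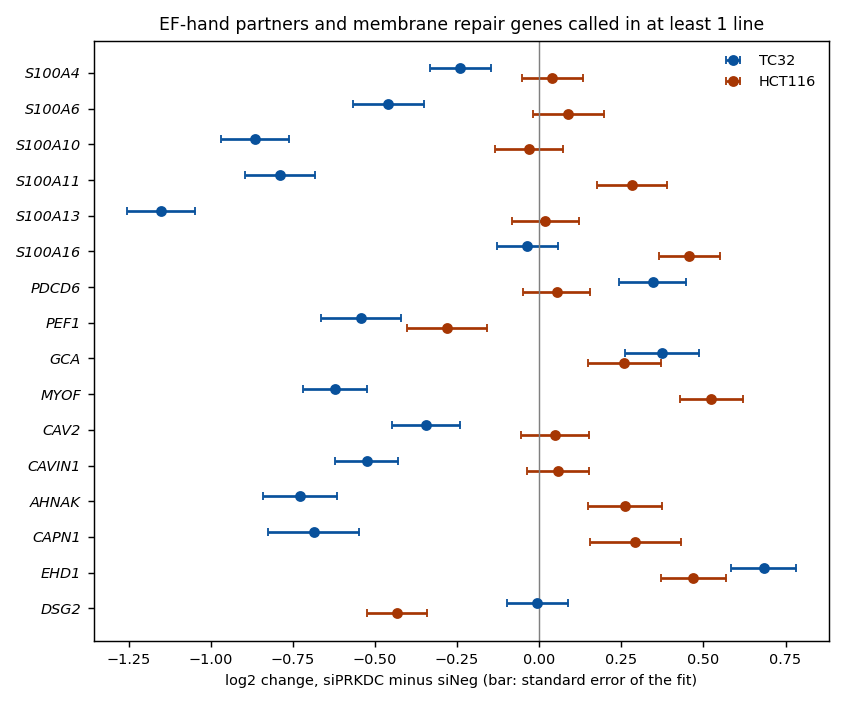
Log2 change with siPRKDC (point, siPRKDC minus siNeg) and its SE (bar) for the S100, penta-EF-hand and membrane repair genes called in at least 1 of the lines. S100A10, S100A11, S100A13, MYOF, AHNAK and CAPN1 lie below -0.60 in TC32 and at or above -0.03 in HCT116, while EHD1 lies above 0 in both lines.

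The genes whose pattern over the 12 samples lay closest to that of ANXA1 or ANXA7 were found by the root mean square difference of the log2 values, each gene centred on its own mean. For ANXA1, whose own root mean square deviation was 1.08, these were TFPI (tissue factor pathway inhibitor) at 0.364, MYB (a transcription factor) at 0.452 and RDM1 at 0.458. TFPI changed with siPRKDC by -2.32 in TC32 and -0.66 in HCT116. For ANXA7, whose own deviation was 0.572, the closest were UNG (uracil-DNA glycosylase) at 0.120, CDCA4 at 0.184 and DEPDC1B at 0.191. UNG changed by -0.79 in TC32 and -1.13 in HCT116. The measure describes these 12 samples and carries no test.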

How the data were processed

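RNA of the 12 samples (Maxwell 16 extraction, biotinylated cRNA by TotalPrep-96, per the labels' protocols) was hybridized to Illumina HumanHT-12 v4 arrays. The deposited intensity values are on a linear scale and neither background-corrected nor normalized, and a detection p-value accompanies each intensity, per the file headers. The authors also deposited log2 values. Their ranks equal those of the intensities, and sorted values differ by at most 0.010 within a line and 0.216 across lines, so they were used within each line, as an alternative. The submitters' processing notes name GenomeStudio, R 3.0.2 and lumi, with no roles. No genome build is given in the sources used here.

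In R 4.3.3 with limma 3.58.1, neqc corrected background from the detection p-values, with an offset of 16, and quantile normalized all 12 arrays. Probes were kept if some group had a detection p below 0.05 on each of its 3 arrays (16555 of 47322 probes, 13396 with 1 gene). Genes were named from the platform annotation (1 gene for 30113 probes, several for 8, none for 17201). Identifiers of 30074 probes matched RefSeq. Each gene took its brightest kept probe, which left 10386 genes. Arrays give no read depth, and 3 samples per group limit precision.

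The 4 groups were fitted in 1 limma model (8 residual and 13.52 prior degrees of freedom). All tests are two-sided with Benjamini-Hochberg adjustment over all genes, and calls were made below an adjusted p of 0.05. An exact permutation test of 3 against 3 cannot go below 0.1 and was not used. The fit was tested on simulated data with planted changes and independent noise. Such data cannot show shared technical effects or compression near the detection limit. Replicate numbers were not treated as pairs.

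The annexin genes and the lists of partners and markers were chosen with earlier results of these data known. Text names every listed annexin, partner genes that were called, and the 3 genes nearest to ANXA1 and ANXA7. The 11 alternatives were no background correction, cyclic loess, median scaling, no filter on dim probes, and detection p below 0.01 on all arrays. Added to these were the mean of all kept probes, a trend and robust fit and the deposited log2 values. The rest were a replicate block, only the groups compared and leaving out single samples. Where alternatives are counted for a gene, each sample left out counts on its own. Results under some of them are given in the closing section.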

Additional observations from a re-analysis of the deposited data

Results flagged for a closer look

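The following partner and scaffold genes responded to siPRKDC differently in the 2 lines, by the test of the difference between the effects (TC32 minus HCT116, log2 scale, limma adjusted over all genes). The difference was -1.17 (adjusted p = 2.76e-06) for S100A13, -1.14 (1.52e-06) for MYOF, -1.07 (1.33e-05) for S100A11 and -0.99 (6.41e-05) for AHNAK. It was -0.98 (adjusted p = 5.94e-04 in limma) for CAPN1, -0.83 (1.69e-04) for S100A10, -0.58 (0.00215) for CAVIN1 and -0.55 (0.00921) for S100A6. For S100A16 and DSG2, which no TC32 array detected, the differences of -0.49 and 0.43 hold only their HCT116 changes, and no difference in response is read from them. CAV2 differed by -0.39 (adjusted p = 0.0450 in limma), a call lost under 10 alternatives, 8 of them leaving out a single sample (highest adjusted p without TC32 siNeg replicate 1, 0.122). The S100A6 call was lost with median scaling (adjusted p = 0.0725 in limma). Across the array 32.0% of genes were called in this comparison. The rise of the 28S ribosomal probes (RNA28SN5) was also larger in TC32, by 2.38 (adjusted p = 1.29e-07 in limma) on the brighter and 1.45 on the other, and its part in these differences was not tested. Groups of 3 samples were not examined for single samples that stand apart.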

How the results depend on the processing

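The annexin changes kept their direction for ANXA1 and ANXA7 under every alternative, from -3.03 to -2.70 on the log2 scale for ANXA1 in TC32. The count of genes called between the lines under siNeg fell from 6877 to 4398 when detection on all arrays at p below 0.01 was required, which tests fewer genes. Leaving out single samples gave 3956 to 4426 called genes in TC32 (4439 with all), 1461 to 2036 in HCT116 (1948), 6432 to 6912 between the lines and 2947 to 3305 for the difference of effects (3320), and 7 to 8 called annexin probes (7). With a replicate block the counts were 4541, 2010, 6971 and 3389, and 7 annexin probes. Same-numbered samples deviated together only weakly (r from 0.0016 to 0.11). Scaling to a common median moved the share of calls that were higher from 49.1% to 33.2% in HCT116, from 45.4% to 30.7% between the lines, with the median of all genes at -0.21 in place of -0.06, and from 51.4% to 62.9% for the difference. The S100A4 change in TC32 reversed to 0.12 with the mean of all kept probes, since its other kept probe read 0.48 beside -0.24 on the brightest. Of 2376 retests of partner genes, 48 lost a call, 49 gained one and 1 reversed. Dim members (ANXA3 in TC32, ANXA6, ANXA10) lie near the detection limit, where changes are compressed.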

Other observations

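Copines, another family of calcium-dependent phospholipid-binding proteins, were listed with 9 genes, of which 5 were in the fit. CPNE3 rose with siPRKDC in TC32 by a log2 change of 0.54 ± 0.09 (limma, adjusted p = 6.18e-05) and in HCT116 by 0.29 ± 0.09 (adjusted p = 0.0320). The HCT116 call was lost without 5 of the 6 HCT116 samples in turn (highest adjusted p without HCT116 siNeg replicate 2, 0.133 in limma). It was also lost with median scaling, at 0.19 (adjusted p = 0.207 in limma). CPNE4 fell in TC32 by -0.42 ± 0.10 (limma, adjusted p = 0.00196). No copine was called for the difference between the siPRKDC effects, where 32.0% of all genes were. Under some alternatives CPNE3 was called there, with median scaling (limma, adjusted p = 0.0364) and in the deposited log2 values (0.0463), and so was CPNE4, with cyclic loess (0.0463) and without TC32 siNeg replicate 1 (0.00922).

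Of the 8 tested Ewing sarcoma markers, 4 rose with siPRKDC in TC32 and 0 fell, where 21.8% of all genes rose. In HCT116, 1 of these markers (CCND1) rose. Of the 6 tested colorectal epithelial markers, 3 rose in HCT116 and 0 fell, where 9.20% of all genes rose. In TC32, 1 of the epithelial markers (KRT18) rose. KRT18 was also among those that rose in HCT116, but its second kept probe read -0.07 in HCT116 and -0.63 in TC32.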
